A study of Homo sapiens with 4 samples.

Results

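The Hippo pathway and its transcriptional arm were followed through 10 genes in TU-177 cells, an established human laryngeal squamous cell carcinoma (LSCC) line. The genes were picked by name: the coactivators YAP1 and WWTR1 (the gene of TAZ), the DNA-binding factors TEAD1 and TEAD4, the kinase LATS2, the adaptor AJUBA, and the target genes CCN1 (formerly CYR61), CCN2 (formerly CTGF), ANKRD1 and AMOTL2. They were chosen with earlier results of these data known. All 10 were found among the 28729 genes of the table. RNA was sequenced in 4 libraries. NC 1 and NC 2 came from cells transduced with a lentiviral negative-control shRNA. SKA3-KD 1 and SKA3-KD 2 came from cells transduced with a lentiviral shRNA against SKA3. Both groups were selected with puromycin, added 48 hours after transduction. SKA3 is a subunit of the spindle and kinetochore-associated complex, and the study asked which genes change in expression when it is knocked down. Nothing in the labels says whether the 2 libraries of a group came from separate transductions, so the p-values measure the spread between these libraries only, which may be technical.

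In the Hippo pathway a chain of kinases, STK3 and STK4 with SAV1 and then LATS1 and LATS2 with MOB1, phosphorylates YAP and TAZ. The phosphorylated coactivators are held in the cytoplasm or degraded. When the kinases are inactive, as in spread cells under tension, YAP and TAZ enter the nucleus, bind TEAD factors and switch on genes such as CCN1, CCN2, ANKRD1 and AMOTL2. LATS2 and AMOTL2 are both targets and inhibitors of YAP, which makes them part of a negative feedback loop. Most of this regulation acts on protein location and stability, which RNA levels do not show.

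TEAD factors bind the letters GGAATG, read on either strand. The 250 bases before the start of 2 target genes are shown because both hold these letters more than once, CCN2 as an expressed target and ANKRD1 as one close to silent in this line. GGAATG is in capitals, and both sequences are read on the strand of the gene, from RefSeq on GRCh38.p14.
CCN2, chr6:131951373-131951622, minus strand: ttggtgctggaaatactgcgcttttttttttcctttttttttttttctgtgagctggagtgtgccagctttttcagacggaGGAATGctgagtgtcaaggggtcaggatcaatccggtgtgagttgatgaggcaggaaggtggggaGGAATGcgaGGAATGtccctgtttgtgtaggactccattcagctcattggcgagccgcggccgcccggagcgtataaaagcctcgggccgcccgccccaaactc
ANKRD1, chr10:90921088-90921337, minus strand: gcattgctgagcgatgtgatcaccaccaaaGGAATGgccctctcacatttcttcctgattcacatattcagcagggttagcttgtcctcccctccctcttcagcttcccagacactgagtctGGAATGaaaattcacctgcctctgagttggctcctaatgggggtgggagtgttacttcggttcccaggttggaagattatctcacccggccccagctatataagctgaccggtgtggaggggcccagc
The matches of CCN2 begin 169, 104 and 95 bases before the start, and those of ANKRD1 begin 220 and 128 bases before it. At least 1 match was found in 11.9% of 35116 human promoter windows of this length, at least 2 in 0.94% and at least 3 in 0.0826%. Windows were on hand for 7 of the 10 genes. YAP1 held 1 match, 162 bases before the start, and AMOTL2 and AJUBA held 1 each at the second of 2 start sites. WWTR1, with 2 start sites, and LATS2 held none. TEAD1, TEAD4 and CCN1 had no window here. The letters of the AP-1 site, TGANTCA, were found in the window of ANKRD1 only among these 7 genes, and in 6.57% of all windows. The CArG box bound by SRF was found in none of the 7 and in 1.16% of all windows. A match of letters is a description of the sequence and not evidence of binding.

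Values are FPKM as the authors deposited them, fragments scaled to gene length and to the size of the library, so that genes can be compared with each other per length. Whole numbers of reads could be read back from the steps of these values. The library sizes inferred in this way lay between 9015056 and 11966130 reads. Reads recovered over all genes summed to 102.13% to 103.74% of these sizes, so the sizes are not counts of all reads. Each of the 10 genes except ANKRD1 rested on at least 295 recovered reads in every library. The spread between replicates exceeded counting noise: chi-square over degrees of freedom came to 3.16 for the NC pair and 3.15 for the SKA3-KD pair. The targeted gene SKA3 fell from 9.52 ± 0.170 to 3.94 ± 0.244 FPKM (SD, n = 2 each; log2 fold change -1.09, adjusted p = 0.00806, limma). Differences are given on the scale of log2(FPKM + 1), SKA3-KD minus NC, a scale that shrinks fold changes where FPKM is low. They were tested with limma over the 12645 genes whose FPKM averaged 1 or more, and p-values were adjusted over all of these. The smallest p-value open to an exact permutation test with 2 libraries a group is 0.333, so every call leans on the variance limma shares between genes.

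The line was checked for the cell type on its label. Of 11 squamous epithelial markers, 10 had a value, and 6 of these had a mean under 1 FPKM. SFN (133.4 to 155.4 FPKM), DSP (65.8 to 68.7) and KRT17 (29.4 to 49.1), which stratified epithelia express, were high. KRT17 fell from 47.3 ± 2.45 to 32.6 ± 4.43 FPKM (SD, n = 2 each; log2 fold change -0.53, adjusted p = 0.0396, limma), and SFN and DSP overlapped between the groups. TP63, the basal cell factor p63, lay between 0.348 and 0.580 FPKM. The basal and wound keratins KRT5, KRT14 and KRT6A did not exceed 0.103 FPKM in any library, and the epithelial cadherin CDH1 did not exceed 0.447. PKP1 did not exceed 0.0942 FPKM, and EPCAM lay between 2.73 and 2.95. Fibroblast markers summed to 15.4 and 15.8 FPKM in NC and to 8.94 and 9.64 in SKA3-KD over the 8 of 9 with a value, 5 of which had a mean under 1 FPKM. DCN, the gene of the matrix protein decorin, fell from 8.38 ± 0.0266 to 2.41 ± 0.0919 FPKM (SD, n = 2 each). Without DCN the sums overlapped, at 7.05 and 7.49 FPKM in NC and 6.46 and 7.29 in SKA3-KD. Of the 3 tested fibroblast markers, 2 had a log2 fold change below 0 (DCN and COL1A1) and 1 above it (PDGFRB). COL1A1 went from 3.60 ± 0.545 to 2.69 ± 0.0368 FPKM (SD, n = 2 each; adjusted p = 0.140, limma). COL3A1, which was under the filter, went from 0.781 ± 0.0227 to 0.418 ± 0.0813. PDGFRB went the other way, from 2.67 ± 0.300 to 3.66 ± 0.665 (adjusted p = 0.165, limma). Endothelial markers summed to at most 0.397 FPKM in a library and leukocyte markers to at most 1.01. The part of these marker changes in the results below was not tested. In bulk RNA, fewer cells of a type and less RNA per cell cannot be told apart.

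Of the 10 genes, 9 passed the filter and ANKRD1 did not. CCN1, AMOTL2 and TEAD1 rose in SKA3-KD and LATS2 fell, with adjusted p-values under 0.05. Over all genes tested, 6.16% were higher and 6.11% lower by the same rule, 12.3% together. Since the 10 genes were chosen with earlier results of these data known, their count is not independent evidence. CCN1 rose the most, AMOTL2 and TEAD1 by smaller amounts, and LATS2 fell to 0.739 of its NC mean. YAP1, WWTR1, TEAD4, CCN2 and AJUBA did not pass the threshold. Both SKA3-KD libraries lay above both NC libraries in 5 of the 9 tested genes (CCN1, AMOTL2, TEAD1, TEAD4 and CCN2) and below both in 3 (LATS2, YAP1 and WWTR1), while this held for 32.3% and 29.2% of all genes tested.

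**Figure D1:**
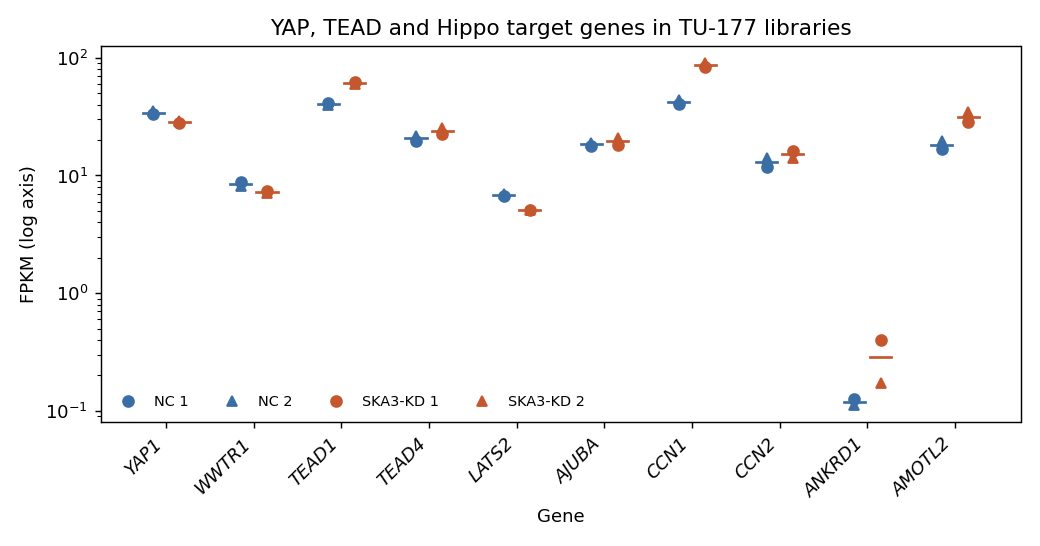
FPKM of the 10 genes in each library on a log axis, with circles for replicate 1, triangles for replicate 2, and horizontal lines for group means (n = 2). The SKA3-KD points of CCN1, AMOTL2 and TEAD1 lie above the NC points, those of LATS2, YAP1 and WWTR1 below, and ANKRD1 stands far under the other genes at 0.112 to 0.397 FPKM.

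The 2 coactivators were both at lower values in SKA3-KD, and neither difference passed the threshold. YAP1 (ENSG00000137693; chr11:102110461-102233423 of GRCh38, plus strand), the main coactivator of the pathway, measured 33.4 and 35.1 FPKM in the 2 NC libraries and 27.7 and 28.9 in the 2 SKA3-KD libraries. The groups did not overlap, and the ratio of the group means was 0.826. The log2 fold change of -0.27 (95% interval -0.42 to -0.11) had an adjusted p-value of 0.0537 in limma, just outside the threshold. It passed in 4 of 9 alternatives that used all libraries, among them limma voom on the recovered reads (adjusted p = 0.0041), and adjusted p-values over all alternatives ran up to 0.235. WWTR1 (ENSG00000018408; chr3:149517235-149736714, minus strand), whose product TAZ shares much of the function of YAP, measured 8.78 and 8.21 FPKM in NC against 7.36 and 7.04 in SKA3-KD. Its log2 fold change was -0.21 (95% interval -0.39 to -0.03, adjusted p = 0.122, limma). It passed with voom alone among the alternatives (adjusted p = 0.0299). An antisense gene, WWTR1-AS1, shares 795 exon bases with it and stood at 0.151 to 0.326 FPKM. YAP1 shares 628 exon bases with an antisense gene that was not analysed here. Whether reads were counted by strand is not given in the sources used here.

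The sum of both coactivators was 42.2 and 43.3 FPKM in NC and 35.0 and 36.0 in SKA3-KD. WWTR1 made up 20.8% and 19.0% of this sum in NC and 21.0% and 19.6% in SKA3-KD. The proportion of the 2 paralogues therefore overlapped between the groups, and YAP1 was the larger part in every library.

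The TEAD factors carry the DNA-binding domain that YAP and TAZ lack. TEAD1 (ENSG00000187079; chr11:12674591-12944483, plus strand) measured 41.1 and 39.4 FPKM in NC and 62.1 and 59.6 in SKA3-KD. The increase of 0.58 on the log2 scale had a standard error of 0.06 and an adjusted p-value of 0.0122 in limma. It amounted to a ratio of means of 1.51 and stood at percentile 97.4 of all log2 fold changes. TEAD1 had the most reads of the 10 genes, 3844 to 7600, on the longest exon length used among them, 10816 bases. TEAD4 (ENSG00000197905; chr12:2959330-3040673, plus strand) measured 19.5 and 21.8 FPKM in NC and 22.6 and 25.5 in SKA3-KD. Its groups did not overlap, but the difference of 0.21 (95% interval -0.03 to 0.44, adjusted p = 0.196, limma) was not past the threshold.

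The other TEAD paralogues moved less. TEAD2 went from 10.3 ± 1.10 to 9.11 ± 0.241 FPKM and TEAD3 from 13.1 ± 0.152 to 13.8 ± 2.41 (SD, n = 2 each), with adjusted p-values of 0.299 and 0.765 in limma. The 4 TEAD genes together summed to 83.1 and 85.5 FPKM in NC and to 105.8 and 109.8 in SKA3-KD. TEAD1 made up 49.5% and 46.1% of this sum in NC and 58.7% and 54.2% in SKA3-KD, so that it was the most abundant TEAD transcript in all libraries and a larger part of the total in both SKA3-KD libraries. Per unit of YAP1 and WWTR1 transcript, the TEAD sum was 1.97 and 1.98 in NC and 3.02 and 3.05 in SKA3-KD. The difference in this ratio was not tested. VGLL4, a cofactor that competes with YAP for TEAD, went from 3.73 ± 0.0380 to 2.47 ± 0.339 FPKM (SD, n = 2 each; log2 fold change -0.45, adjusted p = 0.0573, limma).

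**Figure D2:**
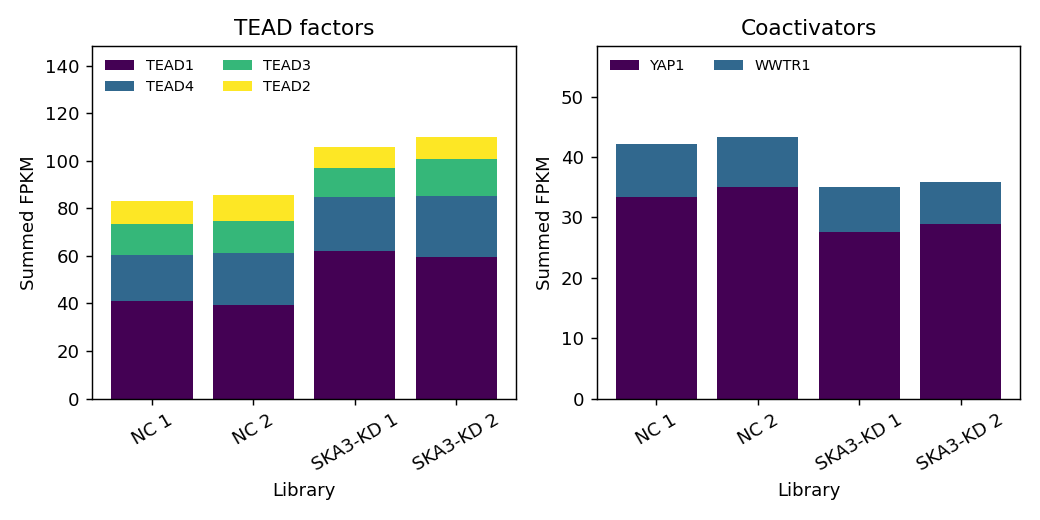
Summed FPKM per library of the 4 TEAD genes (left) and of YAP1 and WWTR1 (right), with bars stacked from 0. The TEAD bars reach 83.1 and 85.5 in NC and 105.8 and 109.8 in SKA3-KD, and the coactivator bars reach 42.2 and 43.3 in NC and 35.0 and 36.0 in SKA3-KD.

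Of the 2 regulators of the coactivators, LATS2 fell and AJUBA did not pass the test. LATS2 (ENSG00000150457; chr13:20973032-21061547, minus strand), the kinase that phosphorylates YAP and TAZ, measured 6.68 and 7.02 FPKM in NC and 5.05 and 5.07 in SKA3-KD. The 2 SKA3-KD libraries nearly coincided. The decrease of -0.37 on the log2 scale had a standard error of 0.07 and an adjusted p-value of 0.0362 in limma. The call was lost without a trend in the variance (adjusted p = 0.0586, limma) and without the filter on low FPKM (0.0977). Its paralogue LATS1 went from 3.64 ± 0.0135 to 3.80 ± 0.0082 FPKM (SD, n = 2 each; log2 fold change 0.05, adjusted p = 0.702, limma). AJUBA (ENSG00000129474; chr14:22971174-22982642, minus strand), a LIM-domain protein that binds and restrains the LATS kinases, measured 18.0 and 18.9 FPKM in NC and 18.2 and 20.9 in SKA3-KD. It was the 1 tested gene of the 10 whose groups overlapped (log2 fold change 0.08, 95% interval -0.14 to 0.30, adjusted p = 0.571, limma).

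Of the 4 genes listed here as targets, CCN1, AMOTL2 and CCN2 had both SKA3-KD libraries above both NC libraries. This held for 32.3% of all genes tested. The values of ANKRD1 were also higher in both, but on at most 8 reads in a library. It was not tested, so the 32.3% does not cover it. CCN1 and AMOTL2 passed the threshold. LATS2, which is also a target, went the other way and fell. Whether the change differed between targets was not tested. CCN1 (ENSG00000142871; chr1:85580761-85583962, plus strand), which encodes a secreted matricellular protein, measured 40.8 and 43.7 FPKM in NC and 83.7 and 90.4 in SKA3-KD. Behind them were 1200 and 967 reads in NC, and 2092 and 2616 with SKA3 knocked down. The log2 fold change of 1.02 (standard error 0.07, adjusted p = 0.00806, limma) was the largest of the 10 genes and stood at percentile 99.5 of all genes tested, and the ratio of means was 2.06. CCN2 (ENSG00000118523; chr6:131948176-131951373, minus strand), its close relative and the gene with 3 GGAATG matches shown above, measured 11.9 and 14.0 FPKM in NC and 16.3 and 14.2 in SKA3-KD. The higher NC value and the lower SKA3-KD value were close to each other, and the log2 fold change was 0.22 (95% interval -0.06 to 0.49, adjusted p = 0.236, limma). The ratio of CCN1 to CCN2 in FPKM was 3.43 and 3.12 in NC and 5.15 and 6.37 in SKA3-KD, without overlap, and this difference was not tested.

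AMOTL2 (ENSG00000114019; chr3:134355874-134375479, minus strand), an angiomotin-family scaffold that binds YAP and activates LATS kinases, measured 16.8 and 19.7 FPKM in NC and 28.7 and 34.5 in SKA3-KD. The increase of 0.76 on the log2 scale had a standard error of 0.12 and an adjusted p-value of 0.0257 in limma, at percentile 98.9. The call was lost without a trend in the variance (adjusted p = 0.0544, limma) and without the filter (0.0916). The RPL39P5 pseudogene shares 187 exon bases with it and was not analysed here. ANKRD1 (ENSG00000148677; chr10:90912096-90921276, minus strand), a muscle and stress-response ankyrin protein often read as a YAP reporter, held 3 and 2 reads in the NC libraries, against 8 and 4 after knockdown. At 0.112 to 0.397 FPKM it was under the filter, and no difference was detectable at this depth (adjusted p = 0.505 in limma without the filter).

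**Figure D3:**
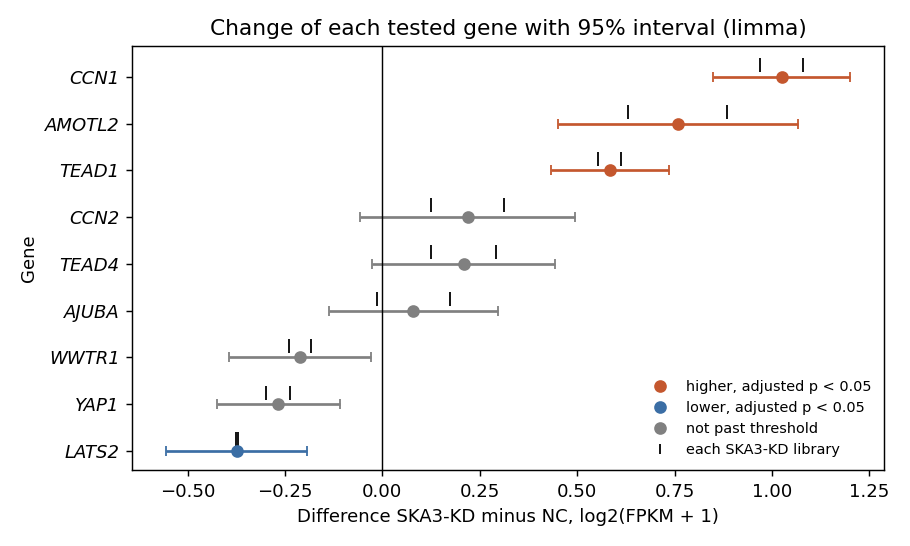
Difference between SKA3-KD and NC on the log2(FPKM + 1) scale for the 9 tested genes, with circles and bars for the limma estimate and its 95% interval and vertical ticks for each SKA3-KD library against the NC mean. CCN1 (1.02), AMOTL2 (0.76) and TEAD1 (0.58) are past the threshold on the right and LATS2 (-0.37) on the left, and the intervals of CCN2, TEAD4 and AJUBA cross 0.

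By level in NC, the order was CCN1 (42.3 FPKM), TEAD1 (40.3), YAP1 (34.2), TEAD4 (20.6), AJUBA (18.4), AMOTL2 (18.3), CCN2 (12.9), WWTR1 (8.50), LATS2 (6.85) and ANKRD1 (0.119). CCN1 and TEAD1 overlapped in NC, as did AJUBA and AMOTL2. All other neighbours in this order were apart in both NC libraries. In SKA3-KD, CCN1 stood apart from TEAD1 at 87.0 against 60.9 FPKM, and AMOTL2 (31.6) had passed YAP1 (28.3), TEAD4 (24.0) and AJUBA (19.6) in group means.

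Leaving out a library leaves 1 group with a single library, which is then assumed to vary like the pair of the other group, so calls are harder to reach. Without NC 1 or without NC 2, no gene of the 12645 passed the threshold in limma, although 3124 and 3352 genes had an unadjusted p-value under 0.05, and adjusted p-values of CCN1 were then 0.066 and 0.06. CCN1 kept its call without SKA3-KD 1 or SKA3-KD 2 (adjusted p = 0.0422 and 0.0349, limma). TEAD1, with adjusted p-values from 0.061 to 0.0719, AMOTL2 (0.0604 to 0.102) and LATS2 (0.119 to 0.149) lost theirs whichever library was left out. The log2 fold changes in these fits stayed at 0.97 to 1.08 for CCN1, 0.55 to 0.61 for TEAD1, 0.63 to 0.89 for AMOTL2 and -0.40 to -0.34 for LATS2.

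The upstream part of the pathway was read from 60 further genes listed by function: kinases of the cassette and their activators, scaffolds, polarity and phosphatase components, TEAD paralogues and VGLL cofactors. Of these, 57 were in the table and 50 were tested. TNIK, FRMD1 and VGLL1 were not analysed here. Past the threshold 7 were higher and 3 lower, where 6.16% and 6.11% of all genes tested were, and the median log2 fold change was 0.15 against 0.01 over all genes tested. The count of higher genes rose to 16 with voom and dropped to 0 without a trend or without the filter, while the median stayed between 0.14 and 0.18 with all libraries.

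Among 16 further tested genes of the kinase cassette, a list that leaves out LATS2, 3 rose and 0 fell in limma. By the same rule 6.16% of all genes tested were higher and 6.11% lower. Of the 16, 0 were lower at an unadjusted p under 0.05 in limma and 1 was lower with voom. NF2, the gene of the tumour suppressor merlin, went from 8.06 ± 1.25 to 11.7 ± 0.290 FPKM (SD, n = 2 each; log2 fold change 0.50, adjusted p = 0.0493, limma). The call of NF2 was lost in 4 of 9 alternatives with all libraries, with median-of-ratios scaling (adjusted p = 0.0557, limma), quantile normalization (0.0525), no trend (0.0823) and no filter (0.138). MAP4K4, a kinase that acts on LATS beside STK3 and STK4, rose by 0.49 (adjusted p = 0.0288, limma) and STK25 by 0.35 (adjusted p = 0.0376, limma). The core kinases STK3 (0.12) and STK4 (0.17) did not pass, with adjusted p-values of 0.567 and 0.157 in limma.

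Among 30 tested upstream regulators 4 were higher and 3 lower, where 6.16% and 6.11% of all genes tested were. AMOTL1, the paralogue of AMOTL2, fell the most. It measured 9.52 and 10.0 FPKM in NC and 3.51 and 3.45 in SKA3-KD, on 358 to 1143 reads. The decrease of -1.27 on the log2 scale had a standard error of 0.07 and an adjusted p-value of 0.0065 in limma, so that the 2 angiomotin-like genes changed in opposite directions, both past the threshold. AMOT, the third member of this family, held 1 read in all libraries together. In the polarity and scaffold genes, SCRIB (0.54) and DLG5 (0.42), both of the basolateral polarity machinery, and WWC1 (0.38), the gene of the LATS scaffold KIBRA, rose, while its paralogue WWC3 (-0.52) and STRIP2 (-0.48) fell. AMOTL1 and the genes just named were picked by the size of their change. RASSF1 (0.37), also named after its value was seen, was the remaining gene past the threshold. Adjusted p-values of SCRIB, DLG5, WWC1, WWC3, STRIP2 and RASSF1 in limma ran from 0.0279 to 0.0383.

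A list of 22 genes often used to read YAP and TAZ activity was counted next. It holds 5 of the 10 genes, namely CCN1, CCN2, ANKRD1, AMOTL2 and LATS2, and the remaining 17 were all tested. PTPN14 stands in this list and among the upstream regulators. Of these 17, 7 were higher and 2 lower past the threshold, where 6.16% and 6.11% of all genes tested were. A log2 fold change above 0 was found in 14 of the 17, and in 6520 of the 12645 genes tested. Over all genes tested the median was 0.01. For the 17 it was 0.32, and ran from 0.29 to 0.32 over the alternatives with all libraries. The largest increases were those of NT5E, an ectonucleotidase that makes adenosine (1.93, adjusted p = 0.0065, limma), and of the receptor tyrosine kinase AXL (1.42, adjusted p = 0.0065). NT5E went from 1.38 ± 0.00541 to 8.04 ± 0.51 FPKM and AXL from 15.8 ± 1.33 to 43.8 ± 0.643 (SD, n = 2 each). F3, the gene of tissue factor, measured 2.96 and 3.16 FPKM in NC and 5.67 and 5.34 in SKA3-KD (0.68, adjusted p = 0.016, limma), and FJX1 8.31 and 8.10 against 12.1 and 13.9 (0.60, adjusted p = 0.0217, limma). NT5E, AXL, F3 and FJX1 were picked by the size of their change. The other genes past the threshold were also named after their values were seen. Of these, MYOF (0.57), ASAP1 (0.51) and CRIM1 (0.32) rose, and CCDC80 (-0.41) and the forkhead factor FOXF2 (-0.27) fell. Earlier results of these data were known when the list was written, so its counts are not independent evidence of direction.

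CCN1, CCN2 and ANKRD1 are also known as genes that answer to the actin cytoskeleton through SRF, and 22 actin and SRF target genes were counted for comparison. Of 20 tested, 13 rose and 0 fell in limma, where 6.16% and 6.11% of all genes tested did. Of the 20, 0 were lower at an unadjusted p under 0.05 in limma and 0 were lower with voom. The median log2 fold change was 0.37, against 0.01 over all genes tested. Both SKA3-KD libraries lay above both NC libraries in 18 of the 20, and in 32.3% of all genes tested. CNN2, a calponin that binds actin (0.68), MYH9, the heavy chain of a non-muscle myosin (0.65), the focal adhesion protein ZYX (0.64), the crosslinker ACTN1 (0.55), the filamin FLNA (0.55) and ACTG1, a cytoplasmic actin (0.52), had the largest increases, with adjusted p-values of 0.014 to 0.0459 in limma. ZYX lost its call with median-of-ratios scaling (adjusted p = 0.0518, limma), quantile normalization (0.0546), no trend (0.0816) and no filter (0.14). Leaving out the filter on low FPKM brought the count of higher genes to 0, and leaving out the trend brought it to 5. MRTFA, MRTFB, MYL9, TAGLN, TPM1, TPM2 and VCL did not pass the threshold. ACTA2 and CNN1 had a mean under 1 FPKM and were not tested. This list and the lists of other Hippo pathway genes were also written with earlier results of these data known. Their counts are therefore not independent evidence of direction.

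**Figure D4:**
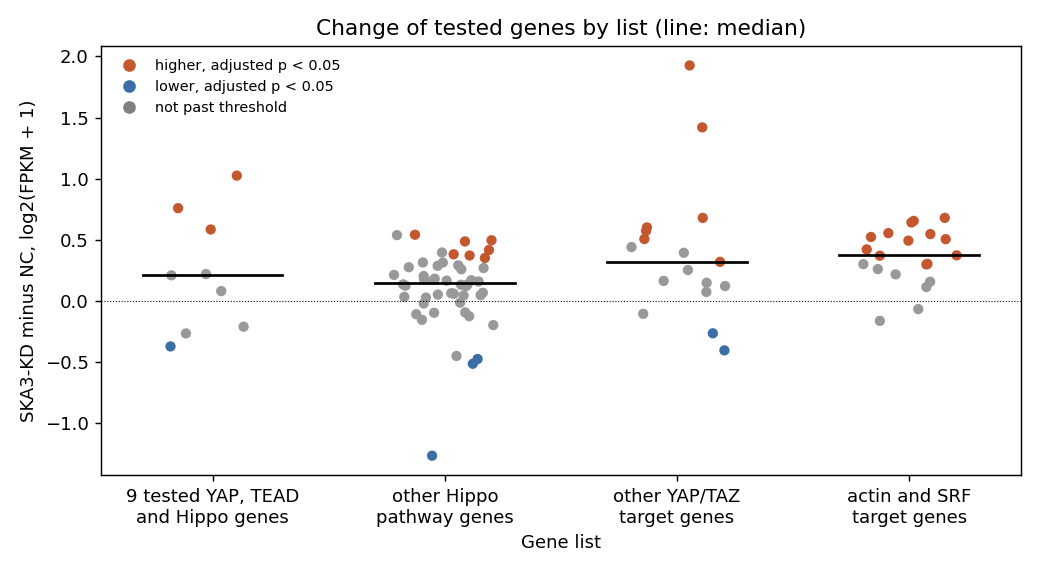
Difference between SKA3-KD and NC on the log2(FPKM + 1) scale for each tested gene of 4 lists, with black lines for the list medians and colours for genes past an adjusted p-value of 0.05. Medians are 0.21 for the 9 tested genes, 0.15 for the other Hippo pathway genes, 0.32 for the other YAP and TAZ target genes and 0.37 for the actin and SRF target genes, and AMOTL1 is the lowest point at -1.27.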

How the data were processed

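RNA-seq of 4 TU-177 libraries was used, 2 NC and 2 SKA3-KD, grouped by their titles. The authors deposited FPKM per gene. The submitters' processing notes name hg19, Bowtie2 2.2.8, HISAT2, StringTie 1.3.1 and Cuffdiff 2.1.1 without their roles, and the annotation is not given in the sources used here. Genes were named by Ensembl identifier, and coordinates are those of GENCODE 29 (GRCh38), not of hg19. Whole reads were recovered as FPKM times exon length and library size. The GENCODE 29 length gave whole numbers (tolerance 0.02) for 69.0% of the 26504 genes above 0, and a length found from the steps (tolerance 0.01) for a further 28.6%. For the 10 genes, the annotated length served all but TEAD1 and LATS2.

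limma 3.58.1 in R 4.3.3 (lmFit, eBayes with trend) was fitted to log2(FPKM + 1) for genes averaging 1 FPKM or more, with Benjamini-Hochberg adjustment and a threshold of 0.05. Fits were also run on simulated counts, with 1 dispersion for all genes, as a check of the code. That run does not measure how reliable the calls in these data are. Named genes were the 10 genes, SKA3, TEAD2, TEAD3, LATS1, STK3, STK4, NF2, VGLL4 and up to 6 genes per list past the threshold without overlap. Where more than 6 passed, those with the largest absolute log2 fold change were taken. The 10 genes and all lists were chosen with earlier results of these data known. The alternatives were 9 settings with all libraries and each of the 4 libraries left out. Python 3.11.15 and matplotlib 3.10.9 were used for the rest.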

Additional observations from a re-analysis of the deposited data

How the results depend on the processing

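The 9 tested genes gave 81 comparisons with alternatives that kept all libraries. The side of the threshold was that of the reported fit in 72 of these, a call was lost in 4 and gained in 5, and no called gene changed sign. With 1 library left out, 14 of 36 comparisons lost a call and none gained one. Depth limits ANKRD1, which held at most 8 reads in a library. The causes of the changes below were not tested, except that leaving out a library leaves fewer samples.

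With limma voom on the recovered reads, 1661 genes were lower and 1603 higher over all genes, 3 of the 10 genes were lower, and 5 other Hippo pathway genes were lower and 16 higher. With a mean FPKM of at least 5, 2 of the 10 genes were lower, 1 YAP/TAZ target outside them was lower, and 1 other Hippo pathway gene was lower and 11 higher. Without a filter on FPKM, 81 genes were lower and 48 higher. The 10 genes then had 0 lower calls (limma, 4777 of 26504 genes with an unadjusted p under 0.05), the YAP/TAZ targets 0 lower and 3 higher, the other Hippo pathway genes 1 lower and 0 higher, and the actin and SRF targets 0 higher. Without a trend, 381 genes were lower and 312 higher, with 0 lower calls among the 10 genes and the YAP/TAZ targets, 0 higher among the other Hippo pathway genes and 5 higher among the actin and SRF targets. Robust eBayes called 2 of the 10 genes lower. A pseudocount of 0.1 raised the median of the other Hippo pathway genes from 0.15 to 0.18.

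With the replicate number as a block, 2 of the 10 genes were lower (LATS2 and YAP1) and 1 YAP/TAZ target outside them was lower. The labels do not tie equal numbers to one culture or day, and the differences between replicates 1 and 2 correlated at 0.097 over genes between the 2 groups, so the libraries were not treated as paired.

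With 1 library left out, lower calls over all genes ran from 0 to 135 and higher calls from 0 to 46. Among the 10 genes lower calls were 0 and higher calls 0 to 1, and the median log2 fold change ran from 0.11 to 0.29. The YAP/TAZ targets outside them had 0 lower and 0 to 2 higher calls, the other Hippo pathway genes 0 to 1 lower and 0 higher, and the actin and SRF targets 0 higher calls with a median of 0.34 to 0.43.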
